A study of Mus musculus with 13 samples.

Results

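Neurotransmitter receptor genes of the mouse were followed through 2 kinds of glioblastoma and normal brain. The members were the protein-coding genes whose symbols in GENCODE M21 mark them as subunits of AMPA, kainate, NMDA or metabotropic glutamate receptors (Gria, Grik, Grin, Grm), GABA-A and GABA-B receptors (Gabr, Gabbr), glycine receptors (Glra, Glrb), nicotinic and muscarinic acetylcholine receptors (Chrn, Chrm) or serotonin receptors (Htr). The rule found 85 genes among the 55416 counted. Tumors had been raised by injecting a lentivirus into the motor cortex of CNP-Cre mice, in which the promoter of the oligodendrocyte gene Cnp drives Cre recombinase. PDGFB tumors (n = 5, genotype PDGFB-shP53) received a virus with the growth factor PDGFB, RAS tumors (n = 5, genotype HrasV12-shp53) one with the oncogenic HRasV12, and both viruses carried a short hairpin RNA against p53. GFP+ tumor pieces were dissected at the clinical endpoint, each from its own mouse as far as the design gives 5 mice for either group. Normal brain (n = 3) is labelled WT, while the design speaks of normal tissue trimmed from around tumors. Its labels give no brain region, and nothing says whether its samples came from separate animals. P-values therefore measure the spread between these samples, and a difference from normal brain cannot be told apart from one of brain region. The ages of the mice are not given in the sources used here.

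Ligand-gated receptors open an ion channel when transmitter binds: AMPA, kainate and NMDA receptors carry the fast excitatory current of glutamate, GABA-A and glycine receptors the inhibitory chloride current, and nicotinic and 5-HT3 receptors are cation channels. Metabotropic glutamate, GABA-B, muscarinic and the remaining serotonin receptors signal through G proteins. Neurons carry most of these receptors in the brain, and oligodendrocyte precursors, which receive synapses from neurons, and astrocytes carry some of them. Since RNA came from whole tissue pieces, fewer cells of a type and less RNA per cell cannot be told apart.

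Libraries held 529162 to 643055 reads counted for a gene, so 1 read was worth 1.56 to 1.89 CPM, a gene's reads scaled to the reads counted for genes in its library. Of uniquely mapped reads, 95.2% to 95.7% fell in no gene. The strand setting of the count is not given in the sources used here. For any gene, reads from its own and from the opposite strand therefore cannot be told apart, with or without a known partner. Levels below are reads counted under a gene's name, and the strand they came from was not tested. Of all genes in the annotation 17.1% had an exon overlapping an exon on the other strand, and of the 7722 genes tested 58.3% did. Among receptor genes 20 of 85 (23.5%) had such an overlap, and 11 of the 28 tested (39.3%). Those 20 together held 68.9 reads per kb of exon over the 13 libraries, and the other 65 held 8.98; the median per member was 7.96 and 3.39. Receptor genes took 0.128% to 0.169% of counted reads in PDGFB tumors, 0.0612% to 0.148% in RAS tumors and 0.280% to 0.285% in normal brain. Chrnb2 alone held 48.9% of their 12333 reads, and with Grin3b and Htr1b 65.4%; all 3 have an exon opposite another gene.

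The stretch of DNA before a gene's start is shown for 6 members on which the results turn: Grin1 and Gabbr1, lower in both tumor types than in normal brain; Gria2, Glrb and Grik3, higher in PDGFB than in RAS tumors; and Htr1b, higher in PDGFB tumors than in either other group. Each line gives the 250 bases before the start, 5′ to 3′ on the gene's strand, from the RefSeq table of build GRCm38.p6, with GC boxes (GGGCGG on either strand, the letters bound by Sp1) in capitals. The windows are Grin1 (chr2:25319188-25319437, minus strand), Gabbr1 (chr17:37045716-37045965, plus strand), Gria2 (chr3:80802836-80803085, minus strand), Glrb (chr3:80913661-80913910, minus strand), Grik3 (chr4:125490446-125490695, plus strand) and Htr1b (chr9:81633833-81634082, minus strand).
Grin1: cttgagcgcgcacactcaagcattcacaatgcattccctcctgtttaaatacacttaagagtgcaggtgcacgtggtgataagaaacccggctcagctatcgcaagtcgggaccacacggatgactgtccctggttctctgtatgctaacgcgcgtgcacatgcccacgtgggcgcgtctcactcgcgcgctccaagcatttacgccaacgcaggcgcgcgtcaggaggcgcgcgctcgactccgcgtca
Gabbr1: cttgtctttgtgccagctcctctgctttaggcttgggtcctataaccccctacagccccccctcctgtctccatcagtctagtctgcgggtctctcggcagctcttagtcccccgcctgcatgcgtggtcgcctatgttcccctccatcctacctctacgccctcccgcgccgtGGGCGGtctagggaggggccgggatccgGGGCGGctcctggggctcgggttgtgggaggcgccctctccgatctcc
Gria2: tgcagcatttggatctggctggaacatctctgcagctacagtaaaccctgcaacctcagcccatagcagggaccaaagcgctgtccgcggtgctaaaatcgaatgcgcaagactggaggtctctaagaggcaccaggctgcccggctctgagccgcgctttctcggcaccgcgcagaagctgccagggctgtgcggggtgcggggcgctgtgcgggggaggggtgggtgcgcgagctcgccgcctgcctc
Glrb: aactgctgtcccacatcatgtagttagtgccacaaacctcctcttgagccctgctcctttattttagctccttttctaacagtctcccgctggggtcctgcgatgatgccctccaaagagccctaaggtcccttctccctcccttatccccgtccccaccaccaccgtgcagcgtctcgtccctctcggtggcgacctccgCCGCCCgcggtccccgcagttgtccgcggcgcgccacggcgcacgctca
Grik3: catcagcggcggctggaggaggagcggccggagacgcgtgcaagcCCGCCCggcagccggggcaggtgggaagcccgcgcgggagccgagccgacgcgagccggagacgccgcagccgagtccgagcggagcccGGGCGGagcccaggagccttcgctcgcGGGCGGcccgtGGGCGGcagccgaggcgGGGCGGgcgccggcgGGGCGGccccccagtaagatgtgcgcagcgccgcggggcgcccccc
Htr1b: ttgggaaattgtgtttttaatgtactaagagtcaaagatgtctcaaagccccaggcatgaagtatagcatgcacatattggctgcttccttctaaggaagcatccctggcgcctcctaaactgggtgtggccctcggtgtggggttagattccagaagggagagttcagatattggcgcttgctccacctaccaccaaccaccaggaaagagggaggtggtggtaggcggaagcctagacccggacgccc

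The 6 windows differ in base content. Grik3 has 6 GC boxes and 82.0% G or C, Gabbr1 2 boxes and 66.0%, and Glrb 1 box and 62.4%. Gria2 (64.8%), Grin1 (58.8%) and Htr1b (52.4%) have none. Of the 85 members 63 had a window in the table, some with more than 1 start, which made 73 windows with a median of 58.8% G or C, against 52.4% over all 32851 windows. A GC box stood in 33 of the 73 (45.2%) and in 32.7% of all windows. The cAMP response element TGACGTCA stood in 0 of the 73 and in 1.55% of all, and TATAAA in 6 (8.22%) and in 12.4%. The longer core of the RE1 element, where the repressor REST binds, stood in 0 and in 0.00913%. All were searched on both strands, each on its own whatever it overlapped. Among the windows shown, GC boxes stood in that of Gabbr1 but not of Grin1, and in those of Glrb and Grik3 but not of Gria2. A match or its absence describes only these letters in these windows.

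Receptor genes were mostly lower in tumors than in normal brain, and more of them in RAS than in PDGFB tumors. Of the 28 members with enough reads to be tested, 17 have no exon opposite another gene. Among these 17, PDGFB tumors were below normal brain for 7 by edgeR's quasi-likelihood test at an adjusted p under 0.05 and above it for 0, where Chrna4 came nearest (adjusted p = 0.2), and over all 28 the counts were 2 higher and 15 lower. Of all 7722 genes tested, 45.3% were called in that comparison, 20.2% higher and 25.1% lower. In RAS tumors 1 of the 17 was higher and 13 lower than in normal brain, and over all 28 the counts were 3 and 21, where 56.2% of all genes were called, 26.9% higher and 29.3% lower. PDGFB tumors exceeded RAS tumors for 4 of the 17 and fell below them for 1, and over the 28 for 5 and 2, where 32.1% of all genes were called, 14.6% higher and 17.4% lower. The median log2 fold change of the 28 was −1.38 in PDGFB tumors and −2.73 in RAS tumors against normal brain, beside −0.00232 and 0.0164 for all genes tested, and 0.59 between PDGFB and RAS tumors, beside 0.0258. Both comparisons with normal brain share the same 3 normal libraries. A member that passed the low-count filter through its level in a single group, whether normal brain or a tumor type, was favored to be called before the test. Grin1, Grin2b, Gabra4, Gabbr2 and Chrm1, among others, had fewer than 10 reads in every tumor and passed through normal brain. For them a call of tumors below normal brain was favored. The counts above therefore describe the 28 and not all 85 members. All tests were two-sided. Scaling by library totals moved the share of all calls that were higher to 56.8% in PDGFB tumors against normal brain, where TMM gave 44.5%, and to 57.3% in PDGFB against RAS tumors, where TMM gave 45.6%. Without regard to the test, every PDGFB tumor lay above every normal brain for 2 members and below for 16 (28.2% and 23.3% of all genes), and every RAS tumor for 3 and 21 (25.8% and 26.4%). Every PDGFB tumor lay above every RAS tumor for 3 members and below for 2 (11.4% and 8.88%).

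The 15 members lower in both tumor types included Gria1, Grik5, Grin1, Grin2b, Grin2d, Gabra2, Gabra4, Gabrb1, Gabbr1, Gabbr2, Chrnb2 and Chrm1. Another 6 were lower in RAS tumors while their difference in PDGFB tumors did not pass the threshold: Gria2, Gria3, Grik3, Grm5, Gabra3 and Glrb. Of these 6, Gria2, Grik3, Grm5 and Glrb also differed between the tumor types, and Gria3 (log2 fold change 0.63, adjusted p = 0.255) and Gabra3 (2.03, adjusted p = 0.0947, edgeR) did not pass. Only Grin3b was higher in both tumor types. RAS tumor 2 stood apart: it had the highest level of the 5 RAS tumors for 20 of the 28 members and for 19 of the 21 lower in RAS tumors, though it lay below every normal brain for all 21. Without it 12 members were higher in PDGFB than in RAS tumors in place of 5, while over all genes 1591 were in place of 1130. Without it 22 members were lower in RAS tumors than in normal brain in place of 21, and 2331 genes in place of 2259.

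**Figure D1:**
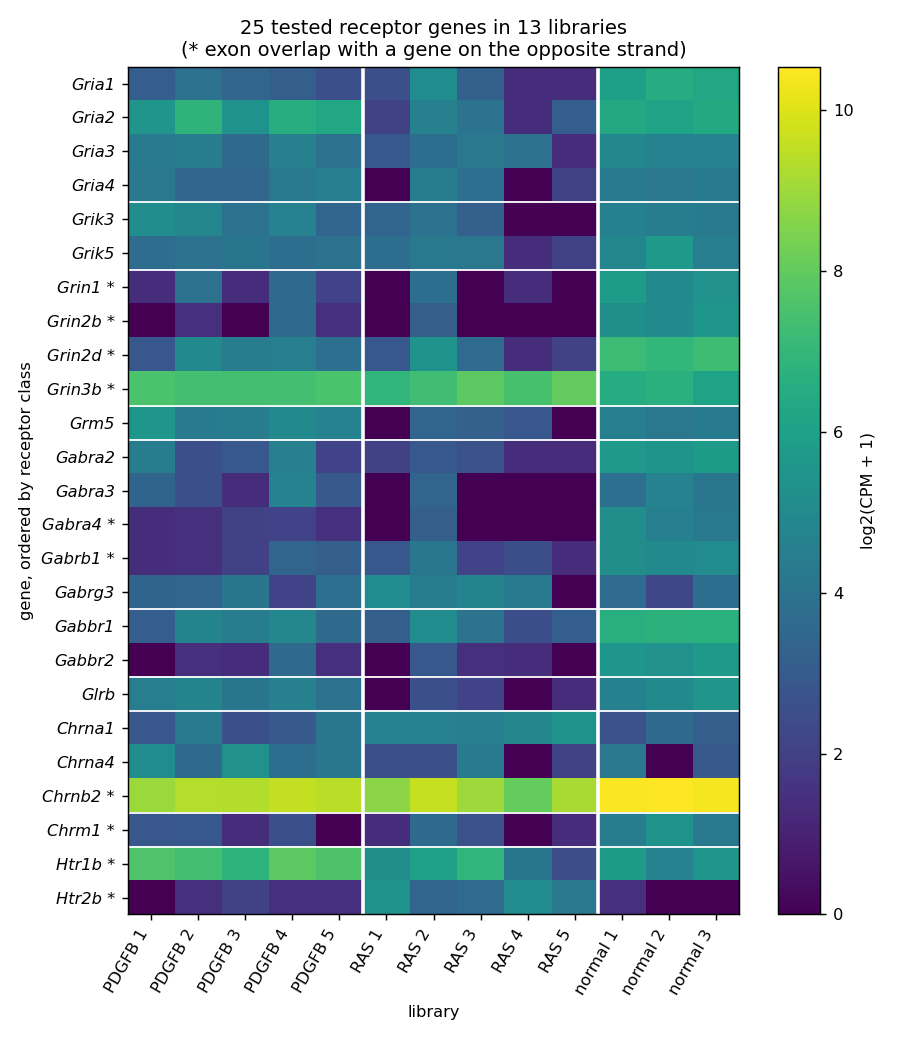
Level of 25 tested receptor genes in each library as log2(CPM + 1), from dark (0) to yellow (highest), with PDGFB tumors left, RAS tumors in the middle and normal brain right; an asterisk marks an exon opposite another gene. Most rows are darkest in RAS tumors, RAS tumor 2 excepted, and Grin3b, Htr2b and Chrna1 run the other way.

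**Figure D2:**
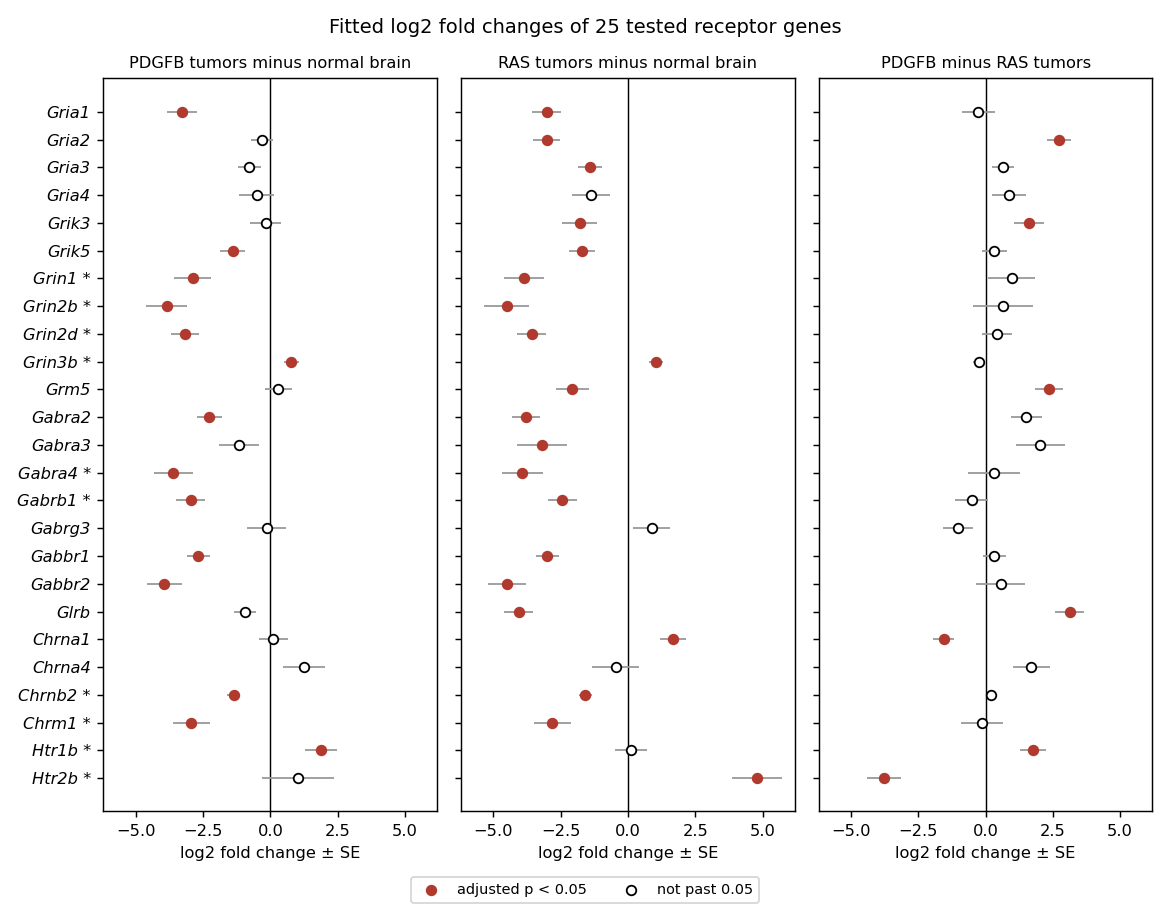
Fitted log2 fold change (horizontal axis, points) with its standard error (bars) for 25 tested receptor genes in the 3 comparisons; filled points passed an adjusted p of 0.05 and open points did not. Left of 0 lie 12 filled points for PDGFB tumors against normal brain and 18 for RAS tumors against normal brain.

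AMPA receptors are tetramers of the subunits GluA1 to GluA4. Gria1 encodes GluA1, a subunit recruited to synapses in plasticity, and lies on chromosome 11 (57011387 to 57330244, plus strand, GRCm38) with no gene opposite. It had 5, 9, 6, 5 and 3 reads in PDGFB tumors 1 to 5, 3, 21, 5, 1 and 1 in RAS tumors 1 to 5, and 36, 49 and 47 in normal brains 1 to 3. Every tumor lay below every normal brain, and RAS tumor 2 was the highest tumor. Gria1 fell by 3.29 ± 0.55 (SE) on the log2 scale in PDGFB tumors against normal brain (9.75-fold lower, adjusted p = 0.000138, edgeR's quasi-likelihood test), and by 3.02 ± 0.54 in RAS tumors (8.09-fold lower, adjusted p = 0.000161), or by 4.26 without RAS tumor 2. Between PDGFB and RAS tumors its log2 fold change of −0.27 ± 0.61 did not pass (adjusted p = 0.769) and became 0.98 without RAS tumor 2.

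Gria2 encodes GluA2, the subunit whose edited form keeps AMPA channels impermeable to calcium (chromosome 3, 80681450 to 80802835, minus strand). It had 28, 70, 25, 57 and 48 reads in PDGFB tumors 1 to 5, 2, 14, 9, 1 and 5 in RAS tumors 1 to 5, and 48, 36 and 51 in normal brains. PDGFB tumors spanned the normal range, and every RAS tumor lay below both other groups. Means were 74.7 ± 32.1 CPM in PDGFB tumors, 10.2 ± 8.91 CPM in RAS tumors and 78.0 ± 8.74 CPM in normal brain (SD, n = 5, 5 and 3). Gria2 was 6.58-fold higher in PDGFB than in RAS tumors (log2 fold change 2.72 ± 0.45 SE, adjusted p = 0.00021) and 8.14-fold lower in RAS tumors than in normal brain (−3.03 ± 0.48, adjusted p = 5.54e-05). Against normal brain PDGFB tumors did not pass the threshold (−0.31 ± 0.42, adjusted p = 0.573, edgeR).

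Gria3 and Gria4, which encode GluA3 and GluA4, were sparser. Gria3 had 12, 13, 7, 14 and 9 reads in PDGFB tumors, 4, 8, 10, 9 and 1 in RAS tumors and 17, 13 and 15 in normal brain. It was 2.65-fold lower in RAS tumors than normal brain (log2 fold change −1.40 ± 0.44, adjusted p = 0.0123, edgeR), a call that ended without normal brain 1 (adjusted p = 0.0648). Gria4 had 11, 6, 6, 11 and 13 reads in PDGFB tumors, 0, 13, 8, 0 and 2 in RAS tumors and 11, 9 and 12 in normal brain, and passed in no comparison. RAS tumor 2 reached the normal range and RAS tumors 1 and 4 had no read. Without RAS tumor 2 Gria4 was lower in RAS tumors than in normal brain (−2.21, adjusted p = 0.0111, edgeR) and higher in PDGFB than in RAS tumors (1.70, adjusted p = 0.0443), and limma-voom called both with all libraries (adjusted p = 0.00841 and 0.0441). Per kb of exon, PDGFB tumors held 1.51 CPM of Gria1, 4.80 of Gria2, 1.82 of Gria3 and 2.43 of Gria4, RAS tumors 1.69, 0.65, 1.07 and 1.21, and normal brain 12.8, 5.02, 2.65 and 2.94. On that scale the most abundant AMPA subunit was Gria2 in PDGFB tumors, Gria1 in RAS tumors, through RAS tumor 2, and Gria1 in normal brain. Before scaling, Gria1 and Gria2 had 31 and 31 reads in RAS tumors and 132 and 135 in normal brain. Their order there thus rests on the annotated exon lengths, 6043 and 15548 bases. These are levels from few reads, with no test between genes.

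**Figure D3:**
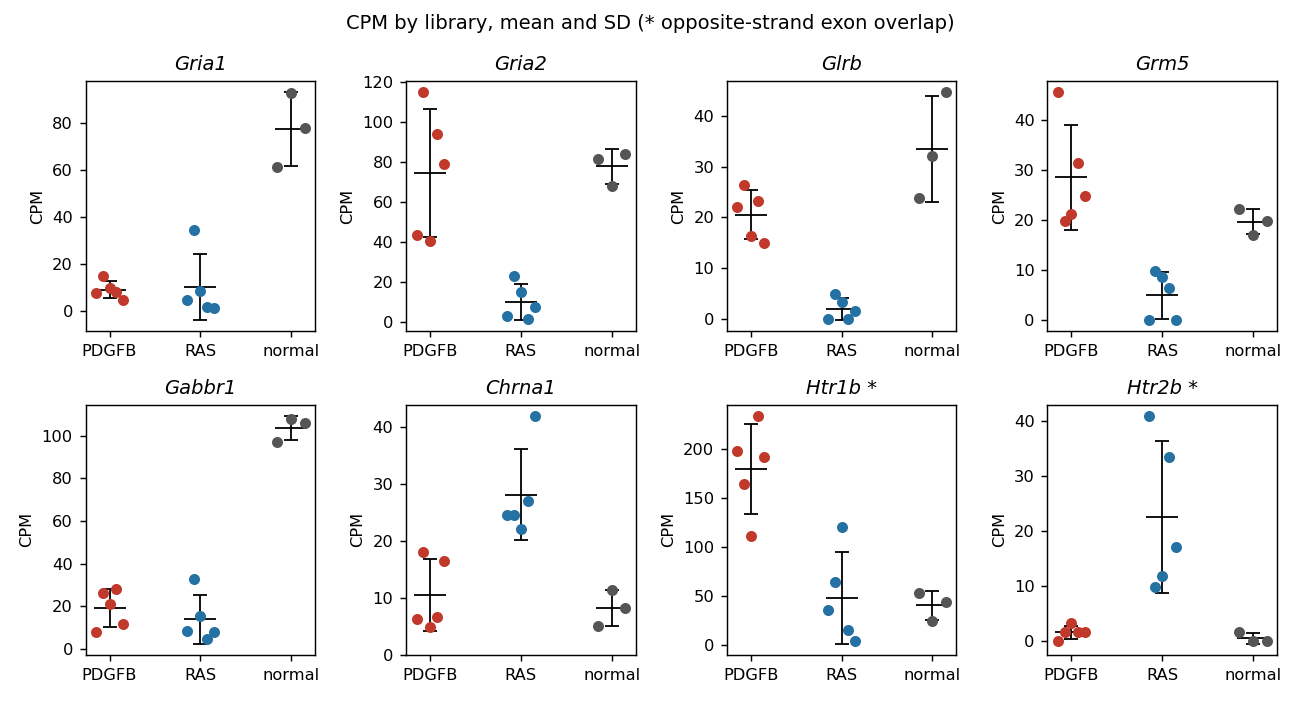
CPM of 8 receptor genes by library (points), with group means (dashes) and SD (bars), PDGFB tumors left, RAS tumors middle, normal brain right; an asterisk marks an exon opposite another gene. Gria2, Glrb and Grm5 show 5 PDGFB tumors above all 5 RAS tumors, Gria1 and Gabbr1 show both tumor types below normal brain, and Chrna1 and Htr2b are highest in RAS tumors.

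Kainate receptors form presynaptic and postsynaptic glutamate channels. Grik3, which encodes GluK3, had 22, 17, 9, 15 and 6 reads in PDGFB tumors, 6, 9, 5, 0 and 0 in RAS tumors and 14, 11 and 12 in normal brain. RAS tumors all lay below normal brain, and PDGFB and RAS tumors overlapped between 6 and 9 reads. It was 3.47-fold lower in RAS tumors than normal brain (log2 fold change −1.79 ± 0.64, adjusted p = 0.0243) and 3.07-fold higher in PDGFB than in RAS tumors (1.62 ± 0.57, adjusted p = 0.0379, edgeR). Both calls were fragile: the one between tumors ended when any of PDGFB tumors 1, 2 or 4 or RAS tumors 4 or 5 was left out or the groups were fitted alone (adjusted p 0.0624 to 0.0995), and the one against normal brain in a fit of those groups alone or without RAS tumor 4, normal brain 1 or normal brain 2 (0.0516 to 0.084).

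Grik5, which encodes the high-affinity auxiliary subunit GluK5, had 8, 9, 10, 8 and 9 reads in PDGFB tumors, 8, 11, 10, 1 and 2 in RAS tumors and 16, 26 and 13 in normal brain. All tumors lay below all normal brains. It was 2.64-fold lower in PDGFB tumors (log2 fold change −1.40 ± 0.47, adjusted p = 0.0208, edgeR) and 3.29-fold lower in RAS tumors (−1.72 ± 0.48, adjusted p = 0.00582) than in normal brain. Both calls ended without normal brain 2, at an adjusted p of 0.211 for PDGFB and 0.0811 for RAS tumors.

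NMDA receptors need the obligatory subunit GluN1, encoded by Grin1 (chromosome 2, 25291181 to 25319187, minus strand), whose exons overlap those of Grin1os. Grin1 had 1, 9, 1, 7 and 2 reads in PDGFB tumors, 0, 8, 0, 1 and 0 in RAS tumors and 32, 17 and 24 in normal brain. Every tumor lay below every normal brain, and 3 RAS tumors had no read. Grin1 passed the low-count filter through normal brain alone, so a call of tumors below normal brain was favored before the test. Grin1 was 7.42-fold lower in PDGFB tumors (log2 fold change −2.89 ± 0.68, adjusted p = 0.0022, edgeR) and 14.6-fold lower in RAS tumors (−3.86 ± 0.76, adjusted p = 0.00035) than in normal brain. Between PDGFB and RAS tumors it did not pass (0.97 ± 0.88, adjusted p = 0.424), but did without RAS tumor 2 (3.32, adjusted p = 0.0151). Without that library RAS tumors had 1 read in all, and the fitted log2 fold change against normal brain was −6.21.

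Of the subunits that join GluN1, Grin2b and Grin2d were lower in tumors. Grin2b, the GluN2B subunit of early development and of adult forebrain, had 0, 1, 0, 7 and 1 reads in PDGFB tumors, 0, 5, 0, 0 and 0 in RAS tumors and 22, 17 and 28 in normal brain, so each tumor type had 1 library that held most of its reads. It was 14.5-fold lower in PDGFB tumors (log2 fold change −3.86 ± 0.78, adjusted p = 0.000674, edgeR) and 22.8-fold lower in RAS tumors (−4.51 ± 0.85, adjusted p = 0.000238) than in normal brain. Without PDGFB tumor 4 the fitted log2 fold change in PDGFB tumors was −5.46 on the 2 reads left, and without RAS tumor 2 no read of RAS tumors was left. Grin2d, which encodes GluN2D, had 4, 19, 13, 13 and 8 reads in PDGFB tumors, 4, 25, 7, 1 and 2 in RAS tumors and 88, 66 and 93 in normal brain. It was 8.95-fold lower in PDGFB (−3.16 ± 0.52, adjusted p = 0.000119) and 11.9-fold lower in RAS tumors (−3.58 ± 0.54, adjusted p = 3.34e-05), again with no overlap with normal brain. Without RAS tumor 2 the change in RAS tumors was −4.68, and Grin2d was higher in PDGFB than in RAS tumors (1.52, adjusted p = 0.019).

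Grin3b, which encodes the glycine-binding subunit GluN3B, ran the other way. It had 120, 103, 103, 100 and 114 reads in PDGFB tumors, 74, 95, 138, 111 and 166 in RAS tumors and 53, 54 and 41 in normal brain, with every tumor above every normal brain. It was 1.72-fold higher in PDGFB tumors (log2 fold change 0.78 ± 0.27, adjusted p = 0.024, edgeR) and 2.06-fold higher in RAS tumors (1.04 ± 0.27, adjusted p = 0.00329) than in normal brain. The call in PDGFB tumors ended without normal brain 3 (adjusted p = 0.124). Its exons overlap those of Tmem259 on the other strand over 32.1% of their length.

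Among the metabotropic glutamate receptors Grm5 was the member with enough reads. It encodes mGluR5, which couples to phospholipase C and is carried by neurons and by immature glia. Grm5 had 29, 12, 13, 19 and 15 reads in PDGFB tumors, 0, 6, 5, 4 and 0 in RAS tumors and 13, 9 and 12 in normal brain, so every RAS tumor lay below both other groups. It was 5.14-fold higher in PDGFB than in RAS tumors (log2 fold change 2.36 ± 0.53, adjusted p = 0.00255, edgeR) and 4.18-fold lower in RAS tumors than in normal brain (−2.06 ± 0.61, adjusted p = 0.00827). PDGFB tumors against normal brain did not pass (0.30 ± 0.51, adjusted p = 0.659).

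GABA-A receptors are pentamers, most often of alpha, beta and gamma subunits. Of 8 tested subunits 6 were lower in PDGFB tumors and 7 in RAS tumors than in normal brain, and 0 were higher; of all genes tested 25.1% and 29.3% were lower and 20.2% and 26.9% higher.

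Gabra2, an alpha subunit of forebrain synapses, had 13, 3, 4, 14 and 2 reads in PDGFB tumors, 2, 4, 3, 1 and 1 in RAS tumors and 29, 23 and 32 in normal brain. It was 4.83-fold lower in PDGFB tumors (log2 fold change −2.27 ± 0.46, adjusted p = 0.000688, edgeR) and 13.8-fold lower in RAS tumors (−3.79 ± 0.54, adjusted p = 1.78e-05), and its difference between tumors lay at the threshold (1.52 ± 0.58, adjusted p = 0.0523) and passed it in 9 of the alternatives, among them library totals (adjusted p = 0.0376), DESeq2 (0.0436) and the fit without RAS tumor 2 (0.0298). It has no exon opposite another gene, and no tumor reached normal brain.

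Gabra4 and Gabrb1 lie head to head and overlap each other by 46 bases. Gabra4 was 12.1-fold and 15.1-fold lower in PDGFB and RAS tumors than in normal brain, and Gabrb1 7.79-fold and 5.43-fold (adjusted p 0.000282 to 0.000821). All 5 reads of Gabra4 in RAS tumors were in RAS tumor 2, and without it Gabrb1 had a log2 fold change of −3.07 in RAS tumors, where all libraries gave −2.44. Gabra3 was 9.15-fold lower in RAS tumors than in normal brain (−3.19 ± 0.92, adjusted p = 0.00661), with all 6 of its reads in RAS tumor 2, and in PDGFB tumors it did not pass (−1.16, adjusted p = 0.214), except with limma-voom (−1.48, adjusted p = 0.0442). Without RAS tumor 2 both were higher in PDGFB than in RAS tumors, which then had no read (adjusted p = 0.0336 for Gabra4 and 0.00327 for Gabra3, edgeR). Gabrg3 had 6, 6, 10, 2 and 8 reads in PDGFB tumors, 20, 13, 15, 12 and 0 in RAS tumors and 7, 2 and 8 in normal brain, and passed in no comparison. Without RAS tumor 5 it was lower in PDGFB than in RAS tumors (−1.34, adjusted p = 0.0186) and higher in RAS tumors than in normal brain (1.30, adjusted p = 0.0291).

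GABA-B receptors are obligate pairs of Gabbr1, which binds GABA, and Gabbr2, which engages the G protein. Neither has a gene opposite. Gabbr1 had 5, 16, 13, 17 and 7 reads in PDGFB tumors, 5, 20, 9, 3 and 5 in RAS tumors and 57, 57 and 64 in normal brain. It was 6.38-fold lower in PDGFB tumors (log2 fold change −2.67 ± 0.41, adjusted p = 7.04e-05, edgeR) and 8.03-fold lower in RAS tumors (adjusted p = 1.84e-05). Gabbr2 had 0, 1, 1, 7 and 1 reads in PDGFB tumors, 0, 4, 1, 1 and 0 in RAS tumors and 27, 21 and 30 in normal brain. It was 15.3-fold lower in PDGFB tumors (−3.94 ± 0.64, adjusted p = 0.000106) and 22.5-fold lower in RAS tumors (−4.50 ± 0.69, adjusted p = 3.78e-05). The fitted value for PDGFB tumors was −5.21 without PDGFB tumor 4, which held 7 of the 10 reads, and that for RAS tumors −5.57 without RAS tumor 2, which held 4 of 6. Between the tumor types neither passed (adjusted p 0.6 for Gabbr1 and 0.672 for Gabbr2).

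Glrb, the beta subunit that anchors glycine receptors to gephyrin, had the largest difference between the tumor types among the 5 tested members higher in PDGFB than in RAS tumors. It had 14, 16, 10, 14 and 9 reads in PDGFB tumors, 0, 3, 2, 0 and 1 in RAS tumors and 14, 17 and 27 in normal brain. Every RAS tumor lay below both other groups, while PDGFB tumors overlapped the lower end of normal brain. Glrb was 8.73-fold higher in PDGFB than in RAS tumors (log2 fold change 3.13 ± 0.53, adjusted p = 0.000279, edgeR) and 16.8-fold lower in RAS tumors than in normal brain (−4.07 ± 0.54, adjusted p = 9.9e-06); without RAS tumor 2 these were 3.71 and −4.65. In PDGFB tumors it was 1.92-fold lower and did not pass (−0.94 ± 0.40, adjusted p = 0.0637), though it did without RAS tumor 2 (adjusted p = 0.0462), with limma-voom (0.0333) and in a fit of those groups alone (0.026). The alpha subunits Glra1 to Glra4, with which it forms channels, had 0 to 3 reads in any library.

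Nicotinic receptor genes moved in different directions. Chrna1, the alpha subunit of the muscle receptor, has no gene opposite and had 4, 11, 3, 4 and 10 reads in PDGFB tumors, 15, 15, 13, 17 and 27 in RAS tumors and 3, 6 and 5 in normal brain. Every RAS tumor lay above every other library. Chrna1 was 3.19-fold higher in RAS tumors than normal brain (log2 fold change 1.68 ± 0.48, adjusted p = 0.00676, edgeR) and 2.95-fold lower in PDGFB than in RAS tumors (−1.56 ± 0.38, adjusted p = 0.00485), and PDGFB tumors against normal brain did not pass (0.11 ± 0.53, adjusted p = 0.876). The genes of its partners in the muscle receptor were sparse: Chrnd had no read, Chrng 1, Chrne 3 and Chrnb1 47 over the 13 libraries.

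Chrna4, a subunit of the main neuronal nicotinic receptor, had 21, 7, 24, 8 and 10 reads in PDGFB tumors, 3, 3, 11, 0 and 2 in RAS tumors and 10, 0 and 4 in normal brain. Its difference between PDGFB and RAS tumors did not pass (log2 fold change 1.71 ± 0.67, adjusted p = 0.0592, edgeR), but did in 10 of the alternatives, among them the fit without RAS tumor 3 (2.63, adjusted p = 0.0102), library totals (0.0437), DESeq2 (0.0496), limma-voom (0.0355) and the replicate block (0.0212). Its partner Chrnb2 had 319, 408, 398, 456 and 419 reads in PDGFB tumors, 259, 484, 298, 168 and 366 in RAS tumors and 839, 790 and 828 in normal brain, all tumors below all normal brains. Chrnb2 was 2.58-fold lower in PDGFB tumors (−1.37 ± 0.24, adjusted p = 0.00019) and 2.99-fold lower in RAS tumors (−1.58 ± 0.24, adjusted p = 3.05e-05) than in normal brain. Its exons overlap those of Adar on the other strand over 16.3% of their length, and from which gene these reads came was not tested. Chrm1, the M1 muscarinic receptor of forebrain neurons, had 4, 4, 1, 3 and 0 reads in PDGFB tumors, 1, 7, 3, 0 and 1 in RAS tumors and 12, 22 and 11 in normal brain. It was 7.65-fold lower in PDGFB tumors (−2.94 ± 0.68, adjusted p = 0.002) and 6.99-fold lower in RAS tumors (−2.81 ± 0.68, adjusted p = 0.00199, or −3.66 without RAS tumor 2).

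The 2 serotonin receptor genes tested separated the tumor types in opposite directions. Htr1b, a receptor that lowers cyclic AMP through Gi proteins, lies on chromosome 9 (81628291 to 81633828, minus strand), and its exons overlap D430036J16Rik over 18% of their length. It had 126, 100, 68, 141 and 116 reads in PDGFB tumors, 22, 39, 71, 10 and 3 in RAS tumors and 31, 13 and 27 in normal brain. PDGFB tumors lay above all normal brains, and RAS tumor 3 reached the lowest PDGFB tumor. In PDGFB tumors Htr1b lay 3.71-fold above normal brain (log2 fold change 1.89 ± 0.59, adjusted p = 0.0145, edgeR), a call that ended without normal brain 2 (adjusted p = 0.0579), and 3.41-fold higher in PDGFB than in RAS tumors (1.77 ± 0.48, adjusted p = 0.00943, or 2.48 without RAS tumor 3). RAS tumors against normal brain did not pass (0.12 ± 0.59, adjusted p = 0.875).

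Htr2b, a Gq-coupled receptor, overlaps the proteasome gene Psmd1 on chromosome 1 (86099026 to 86111970, minus strand). It had 0, 1, 2, 1 and 1 reads in PDGFB tumors, 25, 6, 7, 21 and 11 in RAS tumors and 1, 0 and 0 in normal brain, so that all RAS tumors lay above every other library. Htr2b passed the low-count filter through RAS tumors alone, so a call of RAS tumors above the other groups was favored before the test. It was 13.6-fold lower in PDGFB than in RAS tumors (log2 fold change −3.77 ± 0.63, adjusted p = 0.000251, edgeR). Against normal brain, which had 1 read in all, the count ratio was 39.1 in RAS tumors (95% interval 6.79 to 1570.0, counting error only, adjusted p = 0.000331) and 2.80 in PDGFB tumors (0.31 to 133.0, adjusted p = 0.554). Without normal brain 1, which held that read, the call in RAS tumors held (adjusted p = 0.00111).

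For members that lie opposite an exon, the partner's reads were set beside their own. Grin1os, an antisense transcript, had 154, 355, 303, 585 and 222 reads in PDGFB tumors, 6, 567, 70, 27 and 55 in RAS tumors and 2425, 1997 and 2106 in normal brain. That was 81.0, 80.6 and 89.4 times the reads of Grin1 in PDGFB tumors, RAS tumors and normal brain, and both were highest among RAS tumors in RAS tumor 2. Grin1os was lower in PDGFB tumors (log2 fold change −3.08, adjusted p = 0.00394, edgeR) and in RAS tumors (−4.13, adjusted p = 0.000343) than in normal brain. Gm9962, opposite Gabra5, had 7 to 24 reads in PDGFB tumors, 0 to 25 in RAS tumors and 159 to 199 in normal brain (−3.90 and −5.15, adjusted p 6.74e-05 and 7.2e-06). Gm20387 opposite Grm7 (−3.21 and −2.71), Gm45441 opposite Grin2d (−2.79 and −3.01) and Gm14329 opposite Grin2b (−4.02 and −2.85) were also lower in PDGFB and in RAS tumors, at adjusted p of 0.00718 or less.

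Other partners were Adar, Tmem259, D430036J16Rik and Psmd1. Adar, the RNA-editing enzyme opposite Chrnb2, had 10, 9, 7, 8 and 6 reads in PDGFB tumors, 7, 11, 5, 10 and 7 in RAS tumors and 11, 14 and 25 in normal brain, which was 0.0200, 0.0254 and 0.0204 of the reads of Chrnb2. It was lower in PDGFB (log2 fold change −1.37, adjusted p = 0.00443, edgeR) and in RAS tumors (−1.24, adjusted p = 0.00656), as Chrnb2 was. Tmem259, a membralin gene opposite Grin3b, had 6 to 14 reads in PDGFB tumors, 3 to 21 in RAS tumors and 5 to 13 in normal brain and passed in no comparison. D430036J16Rik opposite Htr1b had 46 to 95, 14 to 100 and 76 to 100 reads in PDGFB tumors, RAS tumors and normal brain, or 0.630, 2.29 and 3.66 times the reads of Htr1b, and did not pass either (adjusted p 0.168, 0.196 and 0.901). Psmd1 opposite Htr2b had 10 to 20 reads in PDGFB tumors, 13 to 28 in RAS tumors and 7 to 9 in normal brain, and was higher in RAS tumors than in normal brain (1.08, adjusted p = 0.0141). Its reads were 16.6, 1.46 and 25 times those of Htr2b in PDGFB tumors, RAS tumors and normal brain. The partners 9330158H04Rik, Art1, 1700022E09Rik, Gm12236, Gm28111 and Gm12660 of other members that were not tested, and Gm26653, opposite Grin2b, had 0 to 8 reads per library. No value was used here for Gm22820, Gm22892 and Gm25837, small RNA genes opposite Chrm1, Grin2b and Grin2c. Whether reads under a member came from its partner was not tested.

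**Figure D4:**
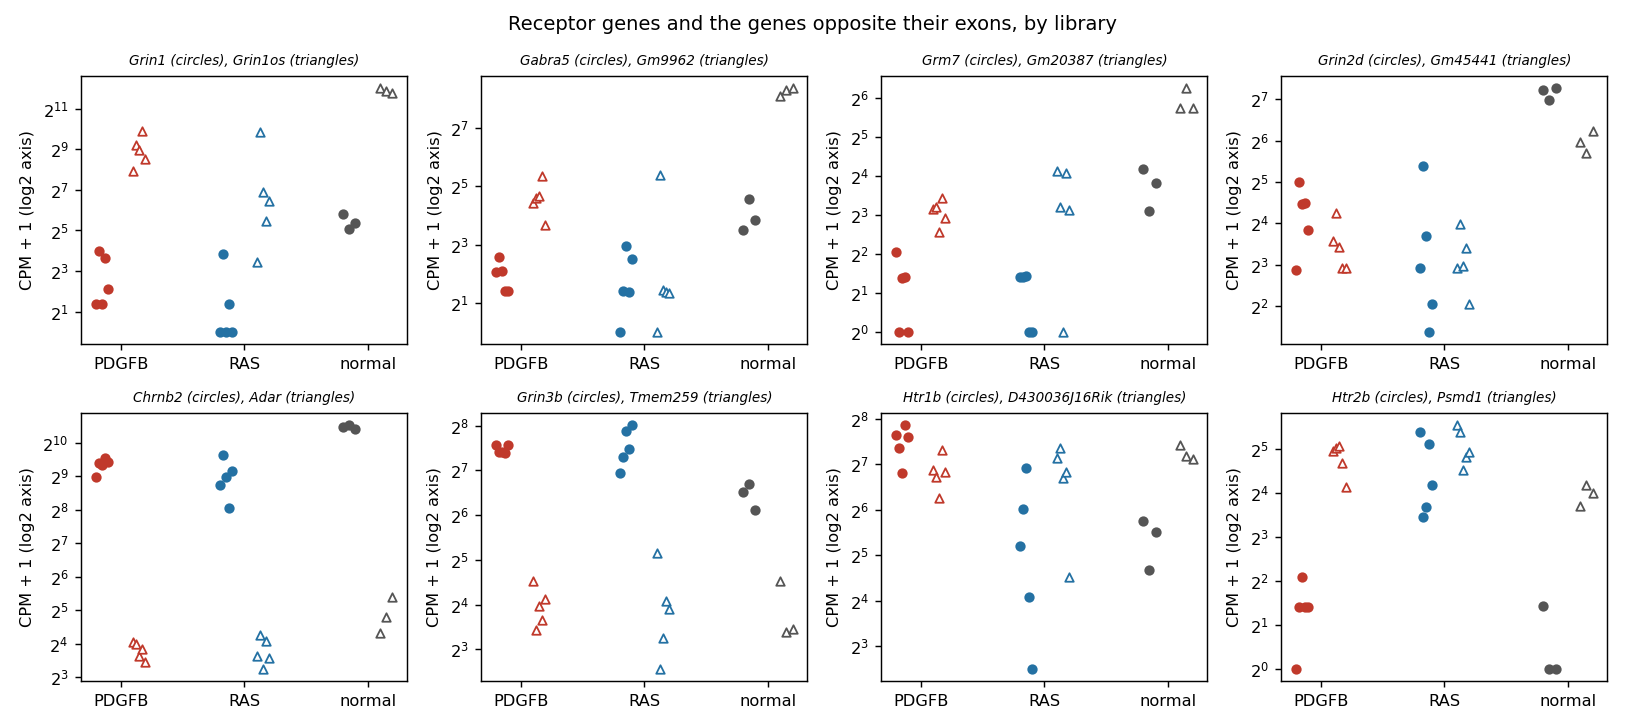
CPM + 1 on a log2 axis of 8 receptor genes (filled circles) and the genes opposite their exons (open triangles) in each library, PDGFB tumors left, RAS tumors middle, normal brain right. Grin1os lies above Grin1 in every library and Gm9962 above Gabra5 in PDGFB tumors and normal brain, while Chrnb2 and Grin3b lie far above Adar and Tmem259.

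The other 57 members did not reach the low-count filter, which asks for about 10 reads in at least 3 libraries. Of these 13 had no read: Chrm5, Chrna10, Chrna6, Chrna9, Chrnb4, Chrnd, Gabra6, Gabrp, Gabrr1, Gabrr2, Gabrr3, Htr3b and Htr5b. The remaining 44 had at most 15 reads in a library and a median of 11.0 over all 13. With no filter, 72 members could be fitted: PDGFB tumors were above normal brain for 2 and below it for 27 (8.37% and 9.69% of 23301 genes), 3 and 39 in RAS tumors (11.6% and 12.9%), and 11 were higher and 2 lower in PDGFB than in RAS tumors (6.74% and 6.69%). A looser filter gave 2 and 25 (12% and 12.9% of 16558 genes), 3 and 32 (16.7% and 17.6%), and 9 and 2 (8.7% and 8.83%). Htr2c, a serotonin receptor of cortex and choroid plexus, had 15, 6 and 10 reads in normal brain and 1 read in all in either tumor type, a count ratio of normal brain over PDGFB tumors of 55.3 (95% interval 9.21 to 2250.0) and over RAS tumors of 55.5 (9.25 to 2260.0). Gabrd, a subunit of extrasynaptic GABA-A receptors, had no read in any tumor and 9, 3 and 3 reads in normal brain, so it was at least 8.91-fold lower in PDGFB tumors and at least 8.95-fold lower in RAS tumors, with 3 reads over a group as the floor. Grin2a, the adult partner of GluN1, had 0, 3, 0, 5 and 1 reads in PDGFB tumors, 0, 3, 0, 0 and 0 in RAS tumors and 9, 12 and 13 in normal brain. In edgeR's fit with no filter its adjusted p against normal brain was 0.000577 in PDGFB and 2.9e-06 in RAS tumors. For Grin2b in PDGFB tumors that fit gave 3.49e-09, where the filtered one gave 0.000674. Adjusted p of the 2 fits are therefore not comparable.

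Some sparse members were higher in PDGFB than in RAS tumors when no filter was used. Grik2, the most studied kainate subunit, had 7, 8, 9, 4 and 8 reads in PDGFB tumors, 0, 1, 1, 1 and 0 in RAS tumors and 6, 1 and 7 in normal brain, a count ratio of PDGFB over RAS tumors of 12 (95% interval 3.81 to 61.1, adjusted p = 0.00037, edgeR). Grik4 had 20 reads in PDGFB tumors and 3 in RAS tumors, a ratio of 6.69 (1.98 to 35.2, adjusted p = 0.0408). Gabrb2, a beta subunit of GABA-A receptors, had 13 reads in PDGFB tumors, 1 in RAS tumors, against 30 in normal brain, a ratio of PDGFB over RAS tumors of 13 (1.96 to 555.0, adjusted p = 0.033). All 5 kainate receptor genes, none with an exon opposite, summed to 61.5 ± 7.63 CPM in PDGFB tumors, 20.8 ± 16.8 CPM in RAS tumors and 70.1 ± 8.46 CPM in normal brain (SD, n = 5, 5 and 3), with no RAS tumor reaching a PDGFB tumor. These genes and Htr2c, Gabrd and Grin2a were named after their values were seen.

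Over the 13 libraries the patterns of CPM most like that of Gria1 were those of Gabbr1, Grin2d and Grik5 (Spearman's rho 0.945, 0.929 and 0.912, with the other tested members compared), and Gabra4 and Grin2b were among the 3 most like Grin1 (0.91 and 0.909). Grin3b was least like both (−0.709 and −0.724). These are descriptions over libraries that share group and depth, with no p. For the marker pair Gria1 and Grin1 the correlation was 0.823.

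Genes that work with the receptors were followed as lists, whose counts stand beside these shares of all genes tested: 20.2% higher and 25.1% lower in PDGFB tumors against normal brain, 26.9% and 29.3% in RAS tumors against normal brain, and 14.6% and 17.4% in PDGFB against RAS tumors. Of 24 tested partners of excitatory receptors (auxiliary subunits and scaffolds, 38 listed), PDGFB tumors were above normal brain for 1 and below it for 19, RAS tumors for 1 and 16, and PDGFB tumors were above RAS tumors for 3 and below for 4. Cacng4, an AMPA receptor auxiliary subunit of the TARP family, had 74, 31, 60, 41 and 51 reads in PDGFB tumors, 4, 5, 15, 1 and 5 in RAS tumors and 9, 3 and 4 in normal brain, and was 7.61-fold higher in PDGFB than in RAS tumors (log2 fold change 2.93 ± 0.43, adjusted p = 7.7e-05, edgeR). Cacng3, another TARP, had 1 read in all in PDGFB tumors, 9, 6, 9, 16 and 8 in RAS tumors and 5, 13 and 12 in normal brain, a count ratio of RAS over PDGFB tumors of 47.8 (95% interval 8.18 to 1930.0, adjusted p = 7.28e-05) and of normal brain over PDGFB tumors of 53.5 (8.89 to 2180.0, adjusted p = 4.82e-05). Neither has an exon opposite. Dlg2, the scaffold PSD-93, was 17.2-fold lower in PDGFB tumors (−4.11, adjusted p = 8.55e-06) and 18.3-fold lower in RAS tumors (−4.19, adjusted p = 4.68e-06), and Cacng2, stargazin, 14.8-fold lower in RAS tumors (−3.89, adjusted p = 0.000586).

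Of 10 tested partners of inhibitory receptors (15 listed), PDGFB tumors were above normal brain for 0 and below it for 2, RAS tumors for 2 and 6, and PDGFB tumors were above RAS tumors for 3 and below for 2. For PDGFB tumors, 2 lower of 10 is no more than the 25.1% of all genes. Among those lower in PDGFB tumors was Gabarapl1 (log2 fold change −1.52, adjusted p = 0.000733, edgeR), a relative of the GABA-A receptor-associated protein. Iqsec3, a gephyrin-binding exchange factor, was 7.12-fold higher in PDGFB than in RAS tumors (2.83, adjusted p = 0.000113), and Shisa7, a GABA-A receptor auxiliary subunit, 3.48-fold (1.80, adjusted p = 0.0457).

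Of 21 tested G protein effectors of metabotropic receptors (25 listed), 2 were higher and 15 lower in PDGFB tumors, 3 and 15 in RAS tumors, and 2 and 2 between PDGFB and RAS tumors. Kcnj3, the GIRK1 channel opened by GABA-B and muscarinic receptors, had 0 to 8 reads in PDGFB tumors, 0 to 18 in RAS tumors and 68 to 88 in normal brain (log2 fold change −4.31, adjusted p = 6.21e-05, and −4.30, adjusted p = 3.97e-05). Gnai1, a Gi protein, and Adcy5, an adenylyl cyclase, were higher in PDGFB than in RAS tumors (2.50, adjusted p = 0.00183, and 1.88, adjusted p = 0.0136). Of 6 tested chaperones and modulators of nicotinic and serotonin receptors (10 listed), 3 were higher and 2 lower in PDGFB tumors, 2 and 1 in RAS tumors, and 1 and 2 between them. Lynx1, which binds nicotinic receptors, was 11.7-fold and 7.16-fold lower in PDGFB and RAS tumors (adjusted p 1.8e-05 and 4.73e-05), and S100a10, the p11 protein that binds some serotonin receptors, 3.47-fold and 12.8-fold higher (adjusted p 0.0208 and 2.62e-05). Lypd1, a relative of Lynx1, was 7.41-fold lower in PDGFB than in RAS tumors (−2.89, adjusted p = 0.00351).

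Most neuron markers were, like most tested receptor genes, lower in tumors than in normal brain. Of 20 tested neuron markers that are no receptors (22 listed), 0 were higher and 19 lower in PDGFB tumors and 0 and 17 in RAS tumors than in normal brain. Between the tumor types 1 was higher and 3 were lower in PDGFB than in RAS tumors. The 16 without an exon opposite summed to 157 to 524 CPM in PDGFB tumors, 74.7 to 586 in RAS tumors and 2490 to 2720 in normal brain, and PDGFB tumor 4 and RAS tumor 2 were the highest of their groups. All 22 summed to 456 to 1070, 4200 to 8610 and 7120 to 7450 CPM, since Nefm, opposite Nefl, averaged 5069 CPM in RAS tumors and 4164 CPM in normal brain, and 276 CPM in PDGFB tumors. Nefm was 20.3-fold lower in PDGFB than in RAS tumors (log2 fold change −4.35, adjusted p = 2.45e-08, edgeR). In RAS tumors against normal brain it did not pass (0.19, adjusted p = 0.582). The 65 receptor genes without an exon opposite summed to 316 to 463 CPM in PDGFB tumors (mean 383), 105 to 348 in RAS tumors (mean 185) and 860 to 926 in normal brain (mean 886), and their highest libraries among the tumors were again PDGFB tumor 4 with 463 and RAS tumor 2 with 348. Log2 fold changes were, for PDGFB and then RAS tumors, −4.09 and −4.22 for Camk2a, −3.64 and −4.62 for Snap25 and −3.70 and −4.78 for Vsnl1 (adjusted p 0.000586 or less, edgeR). No neuron marker was at 0 in all libraries of a group. How far the neuron content of the pieces bears on the receptor genes was not tested.

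**Figure D5:**
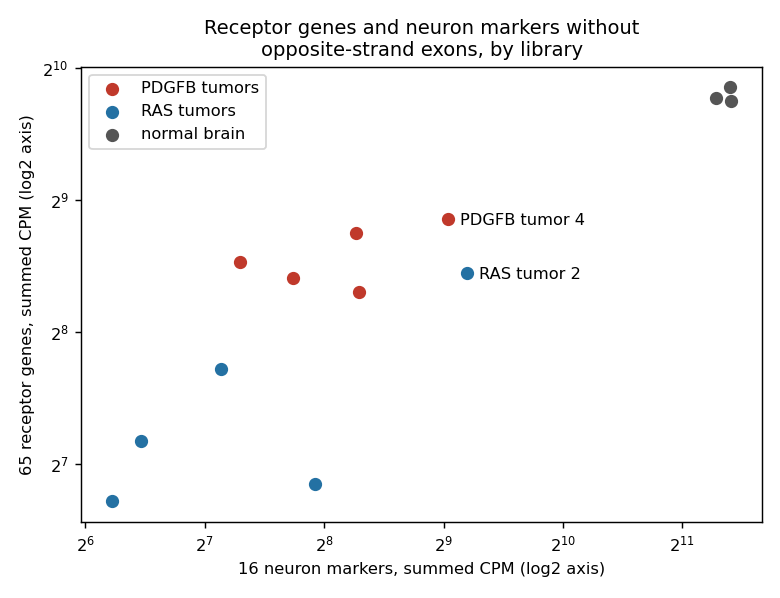
Summed CPM of the 65 receptor genes without an exon opposite another gene (vertical, log2 axis) against that of 16 neuron markers of the same kind (horizontal, log2 axis), 1 point per library. PDGFB tumors lie at 316 to 463 CPM of receptor genes, RAS tumors at 105 to 348 and normal brain at 860 to 926, where neuron markers span 157 to 524, 74.7 to 586 and 2490 to 2720 CPM.

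Markers of oligodendrocyte precursors were mostly higher in PDGFB than in RAS tumors, as Gria2, Glrb, Grm5, Grik3 and Htr1b were. Of 10 tested (12 listed), 9 were higher and 0 lower in PDGFB than in RAS tumors, 9 and 0 in PDGFB tumors against normal brain, and 4 and 1 in RAS tumors. They summed to 772 to 1050 CPM in PDGFB tumors, 195 to 421 in RAS tumors and 116 to 142 in normal brain. The 7 without an exon opposite summed to 235 to 373, 108 to 166 and 31.4 to 34.0 CPM. Cspg4, the NG2 proteoglycan, had 20, 22, 25, 15 and 18 reads in PDGFB tumors, 4, 11, 3, 5 and 2 in RAS tumors and 0, 1 and 0 in normal brain. Olig2 was 7.24-fold (log2 fold change 2.86, adjusted p = 2.19e-05, edgeR) higher in PDGFB than in RAS tumors. Pcdh15, which had 2 reads in all in RAS tumors, had a count ratio of PDGFB over RAS tumors of 38.1 (95% interval 10.2 to 321.0, adjusted p = 4.26e-05). Against normal brain the median log2 fold change of the tested precursor markers was 2.99 in PDGFB tumors and 0.522 in RAS tumors. There Gria2, Glrb, Grm5 and Grik3 went another way: they did not pass in PDGFB tumors and were lower in RAS tumors. Htr1b was higher in PDGFB tumors than in normal brain and did not pass in RAS tumors. The part of precursor cells in the levels of these members was not tested.

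Of the other cell types, microglia and macrophage markers were higher in RAS tumors, with 6 of 9 tested above normal brain, 0 below it and 7 above PDGFB tumors. In PDGFB tumors 2 were higher and 1 lower than in normal brain. All listed summed to 386 to 518 CPM in PDGFB tumors, 701 to 1040 in RAS tumors and 406 to 459 in normal brain. The 10 without an exon opposite summed to 100 to 152, 321 to 578 and 30.2 to 51.2 CPM, with every PDGFB tumor above every normal brain. Lyz2, macrophage lysozyme, was 45.2-fold higher in RAS tumors than normal brain (log2 fold change 5.50, adjusted p = 4.67e-07, edgeR). Chrna1 and Htr2b were also higher in RAS tumors than in both other groups. Among RAS tumors, Chrna1 was highest in RAS tumor 5, where these markers summed highest (1040 CPM). Htr2b was highest in RAS tumor 1, where they summed lowest (701 CPM). The part of these markers was not tested. Astrocyte markers (10 tested) were lower for 6 in PDGFB and 6 in RAS tumors and higher for 0, and mature oligodendrocyte markers (7 tested) for 5 and 6 and higher for 0. They summed to 279 to 623 and 809 to 896 CPM in PDGFB tumors, 161 to 828.9 and 600 to 927 in RAS tumors, and 896 to 1110 and 1660 to 2400 in normal brain. The 8 astrocyte markers without an exon opposite summed to 181 to 390, 105 to 578 and 342 to 472 CPM in these groups. There RAS tumor 2, with 578 CPM, lay above every normal brain. The 8 mature oligodendrocyte markers of that kind summed to 138 to 240, 80.2 to 340 and 1060 to 1670 CPM. Opalin, a mature oligodendrocyte marker, had no read in RAS tumors. Of 9 endothelial and mural markers 1 could be tested, Rgs5, which was 7.25-fold lower in PDGFB than in RAS tumors (−2.86, adjusted p = 0.00128). That list summed to 19.8 to 39.1, 46.0 to 148 and 33.1 to 34.1 CPM in PDGFB tumors, RAS tumors and normal brain.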

How the data were processed

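The authors deposited raw read counts, not normalized, for 55416 genes in 13 libraries. Per the labels, polyA RNA (Trizol) went into TruSeq RNA Sample Prep libraries. Per the submitters' processing notes, fastp 0.22.0, STAR 2.7.9a and build GRCm38 were used; the annotation and strand setting are not given in the sources used here. Rows of the aligner's summary were left out of library totals. Groups came from the titles of tumors and the tissue label of normal brain.

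Symbols, exons and strands were matched to GENCODE M21, which names 52135 of these genes and lacks 3281. edgeR 4.0.16 (R 4.3.3) kept 7722 genes (filterByExpr, minimum count 10, minimum total 15), scaled by TMM and fitted all 13 libraries by quasi-likelihood with a mean for each group. P-values were adjusted by Benjamini-Hochberg over all genes tested, and a gene was called under 0.05. CPM used the counted reads; folds are TMM-scaled, so they differ from ratios of mean CPM. Where a group had no read, the fold is a bound that grants it 3 reads in all; with 1 to 3 reads, the count ratio is given with its 95% interval. Intervals and floors hold counting error alone, as PCR copies were not marked. No 2 replicates agreed within sampling noise (chi-square per degree of freedom 1.686 or more).

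The members, lists and tests were chosen with earlier results of these data known. Values in every library are given for Gria1 and Grin1, for up to 4 tested members per class with the smallest adjusted p, and for partners opposite an exon; per list, up to 2 called genes with the largest change in a comparison are named. A few members and list genes count in the totals but are not reported here. Alternatives were other scalings (median of ratios, library totals), no filter, a looser one (1 CPM in 5 libraries), DESeq2 1.42.0, limma-voom (limma 3.58.1), the 2 groups alone, genes with no opposite exon, a threshold of 0.01 for the adjusted p, a change of 2-fold or more, the replicate number as a block between tumors, and leaving out each library.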

Additional observations from a re-analysis of the deposited data

Results flagged for a closer look

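Of 56 sets of 5 tumors examined (28 tested members in 2 tumor types), 13 had 1 library far from the other 4 by Dixon's criterion. Its nominal rate of about 1 of 20 sets is for independent, normally distributed values. These sets share libraries and many hold counts near 0, so the 13 cannot be set against that rate. In 9 of them that library was RAS tumor 2, the highest of the RAS tumors, and for 7 of these it had 34.5 CPM of Gria1 (the others 1.56 to 8.49), 13.1 of Grin1 (0 to 1.59), 8.21 of Grin2b (0), 41.0 of Grin2d (1.59 to 11.9), 9.85 of Gabra3 (0), 8.21 of Gabra4 (0) and 6.57 of Gabbr2 (0 to 1.70). PDGFB tumor 4 was the highest PDGFB tumor for Gabbr2 (11.6 CPM, the others 0 to 1.65) and for Grin2b (11.6 CPM, the others 0 to 1.65). RAS tumor 5 was highest for Chrna1 (42.0 CPM, the others 22.1 to 27.0), and RAS tumor 3 for Chrna4 (18.7 CPM, the others 0 to 4.92).

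For 7 members the effect against normal brain differed between the tumor types by the fitted contrast of edgeR's quasi-likelihood test, which with shared normal libraries is the contrast of PDGFB against RAS tumors. The difference in log2 fold change, PDGFB minus RAS tumors, was 3.13 for Glrb (adjusted p = 0.000279), 2.72 for Gria2 (adjusted p = 0.00021), 2.36 for Grm5 (adjusted p = 0.00255), 1.77 for Htr1b (adjusted p = 0.00943), 1.62 for Grik3 (adjusted p = 0.0379), −1.56 for Chrna1 (adjusted p = 0.00485) and −3.77 for Htr2b (adjusted p = 0.000251).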

How the results depend on the processing

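Of 48 member calls, 41 held under every alternative run other than the stricter thresholds, and the 7 that did not were given with their values beside each gene (Gria3, Grik3, Grik5, Grin3b, Htr1b); with library totals the call of Grik5 in PDGFB tumors also ended (adjusted p = 0.0536). Members lower in PDGFB tumors numbered 27 with no filter and 25 with the looser one, those lower in RAS tumors 39 and 32, and those higher in PDGFB than in RAS tumors 11 and 9, and 8 with limma-voom. Fitting genes with no opposite exon alone called 1324, 1731 and 937 genes (PDGFB and RAS tumors against normal brain, PDGFB against RAS tumors), where all genes had given 3498, 4340 and 2476; of members, 0 were higher and 7 lower, 1 higher and 13 lower, and for the last 6 higher and 1 lower. When 0.01 was the threshold for the adjusted p, 0 members were higher in PDGFB tumors and 1465 genes differed between tumors; at a minimum of 2-fold, 1 member was higher in PDGFB tumors. Leaving out 1 library gave 1 to 2 members higher in PDGFB tumors than in normal brain and 4 to 12 higher in PDGFB than in RAS tumors, the most without RAS tumor 2. With library totals the median log2 fold change of all genes was 0.23, 0.11 and 0.17, where TMM gave −0.00232, 0.0164 and 0.0258, and they made 56.8% of calls higher for PDGFB tumors against normal brain in place of 44.5%, and 57.3% for PDGFB against RAS tumors in place of 45.6%. Numbers 1 to 5 are shared by the tumor titles, but same-numbered tumors deviated with correlations of 0.142, −0.0192, −0.0261, −0.126 and 0.079 and did not pair; with the replicate block 2032 genes and 6 and 2 members were called between tumors. Reversed signs were seen only for results that had not passed. The fold changes were as follows, with the range over libraries left out. In PDGFB tumors against normal brain: Chrna1 −0.0295 with limma-voom, range −0.16 to 0.50, Gabrg3 0.0865 with library totals, range −0.39 to 0.14, and Grik3 0.0581 with library totals, range −0.39 to 0.011. In RAS tumors against normal brain: Chrna4 range −1.29 to 0.82, and Htr1b −0.49 with limma-voom, range −0.49 to 0.51. In PDGFB against RAS tumors: Chrm1 0.0409 with limma-voom, range −0.42 to 0.73, Gabbr2 −0.71 to 1.63, Gabrb1 −0.92 to 0.11, Grin2b −0.95 to 3.83, and Gria1 0.41 with limma-voom, 0.18 with the replicate block, range −0.52 to 0.98. The causes were not tested. Depth limits the filtered test to members with about 10 reads or more in 3 libraries.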
